A study of Mus musculus with 8 samples.

Results

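The HoxC cluster is a row of Hox genes on mouse chromosome 15, with the long noncoding RNA gene Hotair between Hoxc12 and Hoxc11. Its 10 members here, Hoxc13, Hoxc12, Hotair, Hoxc11, Hoxc10, Hoxc9, Hoxc8, Hoxc6, Hoxc5 and Hoxc4, are named by symbol and stand among 20506 named genes. All listed H3K27me3 regions that overlap the cluster (GRCm38, chromosome 15, 102921131 to 103036856) were used, and each was given to the members whose RefSeq span plus 2 kb it touches. The cluster was chosen because its values differed in this same table. Its values are therefore a description, and no test was made.

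The libraries come from 3T3 cells, an immortalised mouse embryonic fibroblast line, that expressed a control construct or an NNMT overexpression construct. NNMT, nicotinamide N-methyltransferase, uses the methyl donor S-adenosylmethionine. The labels give 3 libraries immunoprecipitated for H3K27me3 per construct, called biological replicates, and 1 input per construct. All cells had 48 h in methionine-free medium brought to 10 µM methionine with 10% dialyzed serum, 1% formaldehyde fixation and micrococcal nuclease digestion. The sources used here do not give the vector, its promoter, or whether cells were clones or pools.

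The authors' deposited table gives 3 values for each of 2 sets of libraries and does not say which set is NNMT. The set listed first is set 1 and the set listed second is set 2, and no direction is tied to NNMT. Summed over all 265968 listed regions, the libraries of set 1 held 39899303 to 41971892 and those of set 2 held 35565866 to 36958436. Dividing each library by its sum, or by a size factor from the median ratio to the other libraries, lowers the median log2 ratio of genes by 0.19 or 0.22. Whether the inputs were used is not known, so DNA dosage and the mark cannot be told apart. A listed region marks a difference between the sets and the assay does not measure expression, so the table cannot check the labelled cell type by its markers. Of 13 fibroblast markers 0 carried a listed region, and of 16 markers of epithelium, endothelium, blood, muscle and neurons 12 did, beside 32.2% of all named genes.

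Hox genes encode homeodomain transcription factors that give cells along the body axis their position. Within a cluster, genes at the 5′ end (here Hoxc13) act in posterior and distal parts and genes at the 3′ end (here Hoxc4) in anterior parts. Polycomb repressive complex 2 places H3K27me3 over Hox clusters in broad blocks, and cells from different body positions keep different parts of a cluster free of it. HOTAIR, the human counterpart of Hotair, is known for a proposed role in directing this complex to the HoxD cluster.

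The HoxC cluster was higher in set 1 over most of its length, by 2.03-fold in sum. Its 41 regions in the authors' deposited table summed to 30766, 31515 and 29970 in the libraries of set 1 and to 15037, 15452 and 14855 in those of set 2. Every set 1 library lay above every set 2 library, and the ratio ranged from 1.94 to 2.12 over the 9 pairs of libraries. The difference was uneven: by gene it was 3.55-fold at Hotair and 1.15-fold at Hoxc4. Regions covered 86.8% of the 115726 bp, and the longest stretch without one was 2250 bp, inside Hoxc4.

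Of the 41 regions, 38 were higher in set 1 (35 with size factors), where 59.5% of all listed regions were. In 30 of them all 3 values of set 1 lay above all 3 of set 2; the share over all listed regions was 40.5%. A region with such non-overlapping values is called separated below. Set 1 was at least 2-fold higher in 22 of the 41 regions, against 22.3% of all listed regions. Of these 22 regions, 18 touch Hoxc6, where 14 of the 20 regions were shorter than 500 bp. As deposited, a single region was separated with set 2 higher, where the share over all listed regions was 24.7%. These shares carry no test, since the cluster was picked from the same values.

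All 10 members had summed values that were higher in set 1 and separated. Over the 6610 named genes with a region, 69.7% were higher in set 1 and 59.6% were separated in that direction. A ratio of 2-fold or more was reached by 5 members (Hoxc12, Hotair, Hoxc11, Hoxc10 and Hoxc6), against 16% of genes with a region and 6.81% of genes with at least 10 kb of regions. After either rescaling it was reached by 3 members (Hotair, Hoxc11 and Hoxc6), against 10.2% of genes with a region by library sums and 9.92% with size factors. The median member stood at 2.0-fold, and the median gene with a region at 1.30-fold. The members are not independent of each other, since 13 regions touch 2 members. With either rescaling of the libraries, the values of Hoxc5 and Hoxc4 overlapped and 8 members stayed separated; Hoxc4 then stood at a log2 ratio of 0.0057 or −0.017.

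**Figure D1:**
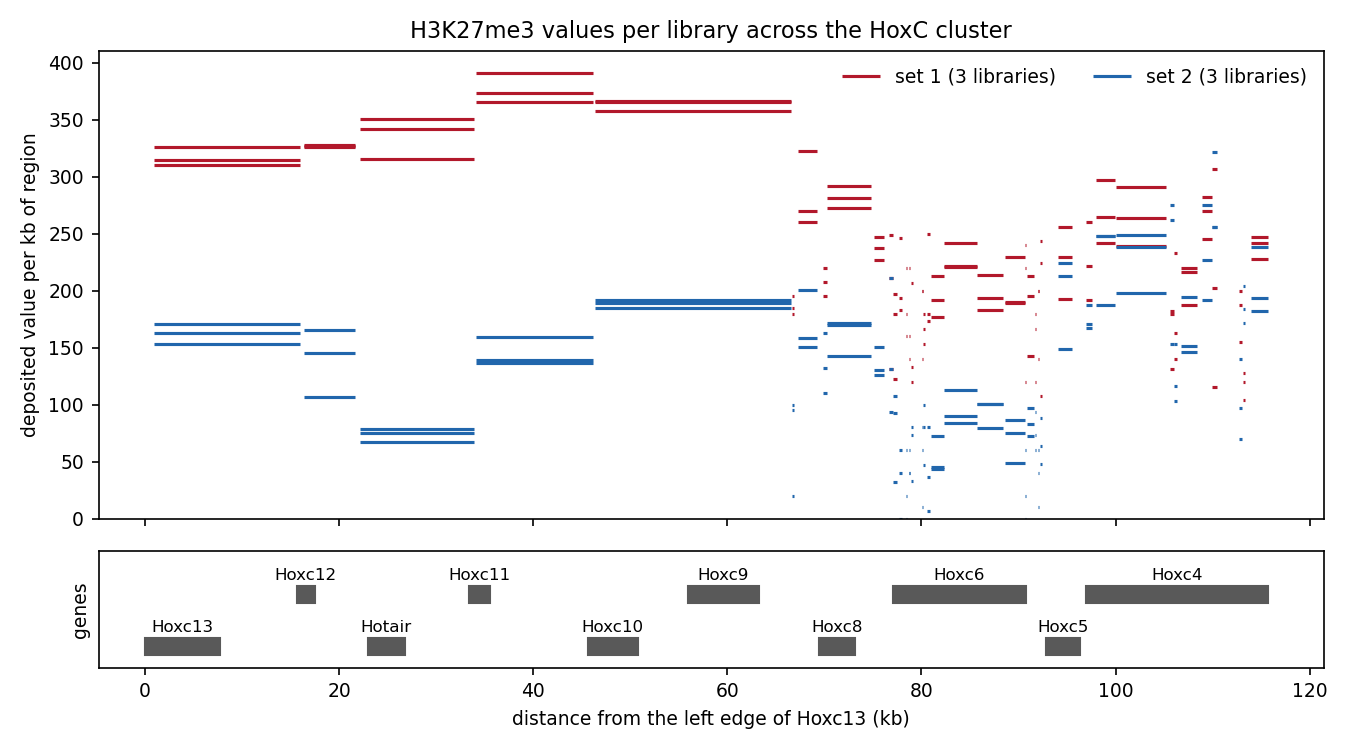
Deposited value per kb of region (vertical axis) against distance from the left edge of Hoxc13 in kb, with 1 line per library in each region (red, set 1; blue, set 2) and gene spans below. Set 2 lies at 73.5 per kb over Hotair, where set 1 lies at 336, and the sets lie close together over Hoxc4.

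Most of the region length lay in the posterior part of the cluster. From Hoxc13 to Hoxc9, 5 regions of 5250 to 20150 bp held 72.4% of the cluster's set 1 sum and 63.9% of its region length. The other 36 regions, from just before Hoxc8 onward, had a median length of 425 bp, with single regions of up to 5200 bp. The summed ratio was 2.33 (2.22 to 2.45 over pairs) for the 5 long regions and 1.53 (1.42 to 1.66) for the other 36. The values of 6 members therefore rest on the 5 long regions alone, and neighbours among them share regions.

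Hoxc13 drives hair and nail differentiation and is the most posterior gene of the cluster (102921131 to 102928814). A region of 15000 bp, 102922101 to 102937100, covered 87.4% of its span. The authors' deposited table lists 4719, 4890 and 4660 in set 1 and 2448, 2565 and 2297 in set 2 for it. The lowest set 1 library was 1.82-fold above the highest set 2 library, and the summed ratio was 1.95-fold. The next region to the left ends 31 bp before the first base of the gene and lies outside the interval. It spans 19650 bp, with 6869, 7285 and 6630 in set 1 and 4299, 4343 and 4319 in set 2, a ratio of 1.60-fold. Counting it too, since it reaches the 2 kb flank, brings Hoxc13 to 1.73-fold.

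Hoxc12, also a posterior Hox gene expressed in developing limb and skin, touched the same 15000 bp region and a second one of 5250 bp (102937501 to 102942750). For the second region the authors' deposited table lists 1711, 1723 and 1717 in set 1 and 868, 559 and 763 in set 2. Set 1 libraries were nearly equal there, and set 2 libraries were spread but all lower. The ratio was 2.35-fold (1.97 to 3.08 over pairs), and for both regions together 2.04-fold (1.92 to 2.16).

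Hotair (102944062 to 102947946) is transcribed as a long noncoding RNA from between Hoxc12 and Hoxc11. The whole of its span lay inside a region of 11700 bp, 102943301 to 102955000, which also reached Hoxc11. By the authors' deposited table this region had 3998, 4101 and 3698 in set 1 and 916, 782 and 882 in set 2. The sets were far apart, at 4.57-fold (4.04 to 5.24 over pairs), the highest ratio among the regions of 500 bp or longer in the cluster. Per kb, set 1 stood at 336 here and at 327 and 377 in the regions on either side. Set 2 stood at 73.5 per kb here and at 139 and 145 on either side. The higher ratio at Hotair thus went with a lower set 2 level, while the set 1 level was close to that of the neighbouring regions. With the 5250 bp region that its 2 kb flank touches, Hotair summed to 5709, 5824 and 5415 in set 1 and 1784, 1341 and 1645 in set 2, a ratio of 3.55-fold.

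Hoxc11, a posterior gene that acts with its paralogues in hindlimb and kidney, spans 102954526 to 102956701, across the boundary of the Hotair region and the next one. That next region, of 12050 bp (102955201 to 102967250), held 4507, 4713 and 4403 in set 1 and 1677, 1922 and 1645 in set 2. Its ratio in the authors' deposited table was 2.60-fold (2.29 to 2.87 over pairs). Both regions together gave Hoxc11 3.25-fold (3.00 to 3.49). With each region's values shared out by the length inside the gene itself, Hoxc11 stood at 2.87-fold and Hotair at 4.57-fold.

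Hoxc10, a regulator of lumbar motor neurons and hindlimb, touched the 12050 bp region and the longest region of the cluster. Its summed ratio was 2.14-fold (2.03 to 2.25 over pairs). With each region's values shared out by the length inside the gene itself, Hoxc10 stood at 1.98-fold, below 2-fold. The longest region runs over 20150 bp, from 102967501 to 102987650, and covers Hoxc9, which sets thoracic motor neuron identity, in full. By the authors' deposited table it held 7389, 7362 and 7218 in set 1 and 3864, 3809 and 3719 in set 2. Libraries within each set were close together, and the ratio of 1.93-fold had the narrowest range of any member, 1.87 to 1.99 over pairs. This region alone gives the value of Hoxc9.

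The same long region covers Mir196a-2, a microRNA gene between Hoxc10 and Hoxc9 (102973350 to 102973434). Its product is known to direct cleavage of Hoxb8 mRNA. The other microRNA gene of the cluster, Mir615 (103014910 to 103015001), lies within Hoxc5 and had no listed region over it; the nearest began 250 bp away. These contrasting loci are shown by 1 mature sequence each from RefSeq (GRCm38.p6), on the plus strand, 5′ to 3′ with the seed (bases 2 to 8) in capitals. The seeds of the 4 mature sequences of these genes were all different.
mmu-miR-196a-5p: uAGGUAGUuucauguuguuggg
mmu-miR-615-3p: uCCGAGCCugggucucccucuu

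Between Hoxc9 and Hoxc8 a region of 200 bp touched no member; it held 36, 37 and 39 in set 1 and 20, 19 and 4 in set 2. Hoxc8, which patterns ribs and brachial motor pools, touched 4 regions, all separated with set 1 higher. Their sums in the authors' deposited table came to 2062, 2153 and 2206 in set 1 and 1124, 1368 and 1246 in set 2. The ratio was 1.72-fold (1.51 to 1.96 over pairs), and the 4 regions were alike, at 1.53-fold to 1.75-fold. The longest of them, 4450 bp (102991451 to 102995900), held 1212, 1299 and 1251 in set 1 and 634, 765 and 755 in set 2.

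Hoxc6, a gene of the forelimb and brachial level (102998226 to 103011882), touched 20 regions, of which 14 were shorter than 500 bp. In the authors' deposited table they summed to 2804, 2946 and 2690 in set 1 and to 1208, 1176 and 1124 in set 2. The ratio was 2.41-fold (2.23 to 2.62 over pairs). All 20 were higher in set 1, 19 were separated and 18 were at least 2-fold higher. The longest, 3350 bp (103003501 to 103006850), held 739, 810 and 743 in set 1 and 378, 303 and 282 in set 2, or 2.38-fold. A region of 1300 bp just before it (103002151 to 103003450) held 250, 277 and 230 against 94, 59 and 57, or 3.59-fold (2.45 to 4.86 over pairs). Several short regions had still larger ratios on low values. A 300 bp region (102998851 to 102999150) held 74, 58 and 55 in set 1 and 0, 12 and 18 in set 2, and the 50 bp regions held 6 to 12 in set 1 and 0 to 3 in set 2.

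By the mean over the regions of its window, Hoxc6 had the lowest level per kb of all members in both sets. Its 3 libraries of set 1 stood at 196 to 215 per kb and those of set 2 at 82.0 to 88.2. Hotair stood at 319 to 344 per kb in set 1, above Hoxc6, and at 79.1 to 105 in set 2, where the libraries of the 2 genes overlapped. Over the gene spans alone, the set 2 mean was lower at Hotair, at 73.5 per kb against 79.3 at Hoxc6. The set 2 libraries overlapped there too, at 66.8 to 78.3 for Hotair and 74.7 to 84.9 for Hoxc6.

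Hoxc5 (103014008 to 103017429), an anterior gene, touched 7 regions, all higher in set 1 and 5 of them separated. Each of the 7 also touches Hoxc6 or Hoxc4. By the authors' deposited table they summed to 1213, 1118 and 1244 in set 1 and to 857, 986 and 896 in set 2, or 1.31-fold (1.13 to 1.45 over pairs). The regions on its Hoxc6 side were 2.03-fold to 4.58-fold higher in set 1 and those on its Hoxc4 side 1.16-fold to 1.28-fold. Over the gene itself lay a region of 1350 bp (103015251 to 103016600) with 310, 260 and 345 in set 1 and 303, 288 and 201 in set 2. These values overlapped, so Hoxc5 was separated only through its flanks. A stretch of 1650 bp without a listed region, 103013601 to 103015250, marks the change from the Hoxc6 side to the Hoxc4 side.

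Hoxc4, the most anterior gene of the cluster and known for neck and thoracic patterning and for a role in B cells, spans 103018097 to 103036856. It touched 12 regions, 9 with set 1 higher and 3 with set 2 higher, and in 9 of the 12 the values of the sets overlapped. Summed from the authors' deposited table, they came to 3800, 3839 and 3577 in set 1 and 3049, 3410 and 3307 in set 2. The sums did not overlap, at 1.15-fold (1.05 to 1.26 over pairs), but this held neither after rescaling by library sums nor by size factors. The longest region, 5200 bp (103021151 to 103026350), held 1373, 1515 and 1245 in set 1 and 1032, 1294 and 1238 in set 2. These values overlapped.

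The start of Hoxc4 for which RefSeq (GRCm38.p6) gives a promoter lies inside the gene span, and neighbouring regions there pointed in opposite directions. The region 103033801 to 103034200 held 80, 75 and 62 in set 1 and 56, 39 and 28 in set 2, or 1.76-fold higher in set 1. The region 103034251 to 103034500 of the authors' deposited table held 32, 30 and 26 in set 1 and 43, 51 and 46 in set 2. It was 1.58-fold higher in set 2 and, as deposited, the only region of the cluster separated in that direction. Both regions are short and rest on low values, of 80 or less per library. The 250 bases before the start (chr15:103034145-103034394, plus strand) share 56 bp with the first of these regions and 144 bp with the second. They are printed because the direction changes within them; 1 of the 10 members had a promoter in the table used. Capitals mark each CG, the dinucleotide whose density is known to go with Polycomb recruitment in mammals.
Hoxc4 promoter: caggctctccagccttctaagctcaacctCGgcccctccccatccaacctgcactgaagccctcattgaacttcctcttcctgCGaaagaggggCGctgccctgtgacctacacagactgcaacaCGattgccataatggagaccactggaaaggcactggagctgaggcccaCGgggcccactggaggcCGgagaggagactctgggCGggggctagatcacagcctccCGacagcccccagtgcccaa

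This stretch holds 8 CG and 62.0% G or C, against medians of 6 and 52.4% over the 32851 promoters of that table, cut to the same length. At least 8 CG were found in 43.0% of them. The motif GCCAT, found in known binding sites of YY1, was searched on both strands and occurs 1 time on the plus strand, 120 bases before the start. It occurs in 32.9% of all promoters of that length.

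**Figure D2:**
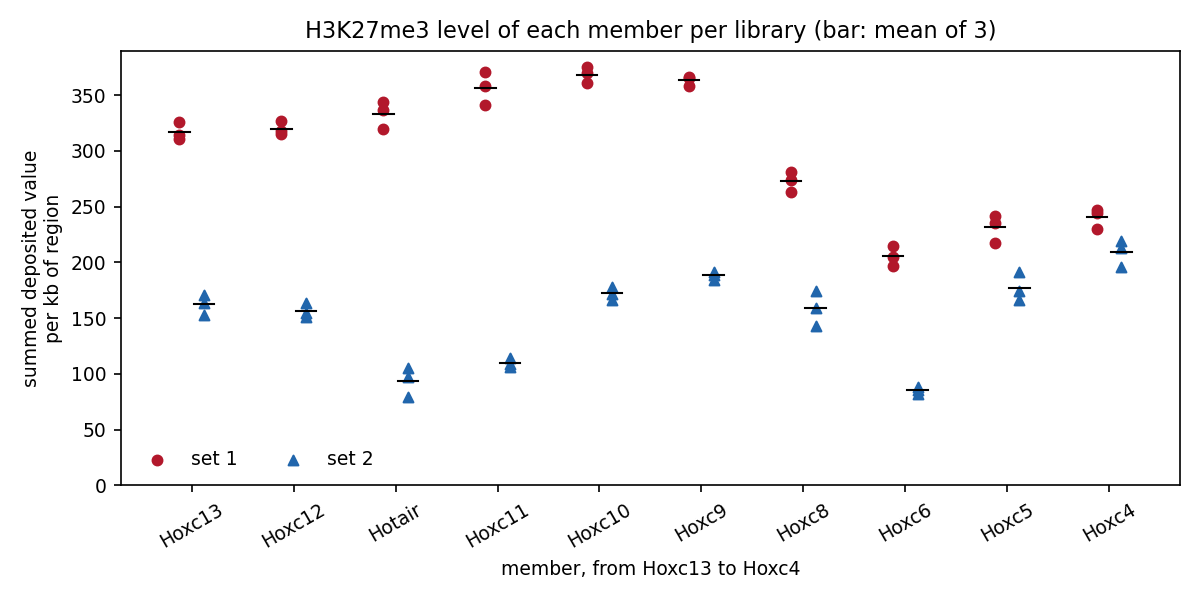
Summed deposited value per kb of region (vertical axis) for each member from Hoxc13 to Hoxc4, with a point per library (circles, set 1; triangles, set 2) and a bar at the mean of the 3. No member's sets overlap as deposited (those of Hoxc5 and Hoxc4 do after either rescaling); they are farthest apart at Hotair and Hoxc11 and nearest at Hoxc4.

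Levels per kb of region followed different orders in the sets. They count listed regions only, which cover 47.5% of the Hoxc5 window and 64.6% of the Hoxc4 window, against 100% at Hoxc9. Stretches without a listed region have no value, so the orders need not hold for whole genes. Members next to each other in the cluster share regions, so their levels are not independent. Overlap between such neighbours is partly set by this assignment. In set 1, Hoxc10, Hoxc9, Hoxc11, Hotair, Hoxc12 and Hoxc13 came first, with mean levels of 368, 363, 357, 333, 320 and 317 per kb. Each of these overlapped the next in its library values. Hoxc8 followed at 273, Hoxc4 at 240, Hoxc5 at 231 and Hoxc6 at 205. Libraries of Hoxc13 and Hoxc8, of Hoxc8 and Hoxc4, and of Hoxc5 and Hoxc6 did not overlap, whereas those of Hoxc4 and Hoxc5 did.

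In set 2 Hoxc4 came first, at 209 per kb and above Hoxc9 in every library. Hoxc9, Hoxc5, Hoxc10, Hoxc13, Hoxc8 and Hoxc12 followed from 188 down to 156, each overlapping the next. Hoxc11 at 110 lay below Hoxc12 and above Hotair without overlap. Hotair at 93.8 overlapped Hoxc6 at 85.4. The highest member exceeded the lowest by 1.79-fold in set 1 and by 2.45-fold in set 2. By listed regions, Hoxc4, eighth of the members in set 1, was thus the first in set 2. Over the gene spans alone, Hoxc11 came first in set 1, at 367 per kb, and Hoxc4 again in set 2, at 211.

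Genes of the other Hox clusters had a smaller median ratio than the HoxC members, which were chosen for their values. Not every one of these genes lay below every HoxC member. Of the 30 Hox genes of HoxA, HoxB and HoxD, 19 carried a region, beside 32.2% of all named genes. Of these 19, 0 reached 2-fold with set 1 higher, against 16% of all genes with a region. Their median was 1.16-fold, and the highest was Hoxd11, a limb and axial patterning gene, at 1.65-fold. The authors' deposited table gives Hoxd11 866, 927 and 857 in set 1 and 527, 518 and 560 in set 2. Whether the clusters differ was not tested.

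Of 14 paralogues of HoxC members that carried a region, every one had a lower ratio than its HoxC counterpart, the HoxC genes having been chosen for their ratios. Beside Hoxc13 at 1.95-fold stood Hoxd13 at 1.32-fold and Hoxb13 at 1.16-fold, while Hoxa13, with 76, 55 and 50 in set 1 and 116, 75 and 112 in set 2, was 1.67-fold higher in set 2 on overlapping values. Beside Hoxc11 at 3.25-fold stood Hoxd11 at 1.65-fold and Hoxa11 at 1.08-fold higher in set 2. Beside Hoxc10 at 2.14-fold stood Hoxd10 at 1.58-fold and Hoxa10 at 1.00-fold. The nearest pair was Hoxc4 at 1.15-fold and Hoxb4 at 1.06-fold. Of the 10 HoxB genes, all with a region, 10 were higher in set 1 as deposited, but 6 after division by library sums and 4 with size factors. For the 4 HoxA genes with a region the count was 2 as deposited and 1 after either rescaling, and for the 5 of HoxD it was 4 in all 3 scalings. Of all genes with a region, 69.7% were higher in set 1 as deposited, 61.7% after division by library sums and 60.4% with size factors.

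**Figure D3:**
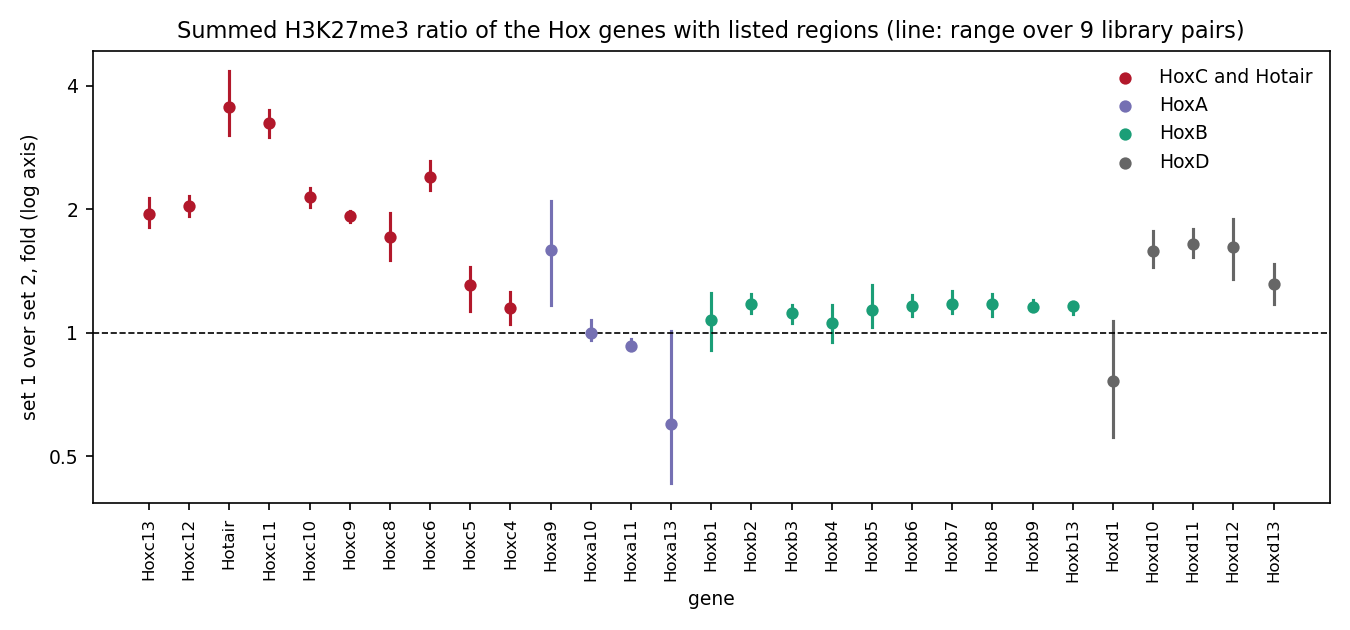
Summed set 1 over set 2 ratio (log axis) of the 10 members and of the 19 other Hox genes with a listed region; lines give the range over the 9 library pairs. Hotair (3.55-fold) and Hoxc11 (3.25-fold) are highest, and the HoxB genes lie between 1.06-fold and 1.18-fold as deposited, with 6 or 4 of the 10 above 1 after rescaling.

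Genes for the machinery that writes, reads or removes the mark were looked up in the authors' deposited table. Of 24 Polycomb and H3K27 demethylase genes, 6 carried a region, beside 32.2% of all named genes, with 4 separated towards set 1 and 0 towards set 2, beside 59.6% and 22% of all genes with a region. The highest was Cbx8, a chromodomain reader in Polycomb repressive complex 1, at 2.36-fold with 91, 53 and 108 in set 1 and 43, 35 and 28 in set 2. The lowest was Kdm6b, a demethylase of this mark, with 159, 123 and 150 in set 1 and 233, 154 and 148 in set 2, values that overlapped. Of 9 Hox cofactor genes of the Pbx, Meis and Pknox families, Pknox2 and Meis3 carried regions, beside 32.2% of all named genes. Both were separated with set 2 higher, by 1.30-fold and 1.48-fold, where the share over all genes with a region was 22%. Pknox2 rests on 88 regions. Meis3 rests on 1 region with low values, 31, 25 and 38 in set 1 and 49, 51 and 40 in set 2.

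The higher values of set 1 did not end at the borders of the cluster. In windows of 100 kb counted outward, the first window to the left, with 0 annotated protein-coding genes or long noncoding RNAs, was 2.58-fold higher in set 1 (2.55 to 2.62 over pairs). All of its 58 regions were separated in that direction, where the share over all listed regions was 40.5%. Its median region stood at 8.66-fold, above the 2.10-fold of the median region of the cluster. A median counts every region alike, whereas the summed ratio rests mostly on regions with high values. The sums of this window in the authors' deposited table came to 19317, 19435 and 19032 in set 1 and 7462, 7427 and 7465 in set 2. The second window to the left was 1.95-fold higher, and the third, 200 to 300 kb away, 1.17-fold higher.

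To the right, windows up to 500 kb away stood at 1.37-fold to 2.08-fold. Just past Hoxc4 the ratio changed little: the last region inside the interval (103035101 to 103036850) stood at 1.17-fold and the first outside (103037801 to 103038450) at 1.25-fold, both on overlapping values. The nearest protein-coding gene to the left, Calcoco1, a transcriptional coactivator gene 199 kb away, had no listed region within 2 kb. The nearest to the right, Smug1, which encodes a uracil-DNA glycosylase, lies 116 kb away and had 3 regions at 1.71-fold (1.43 to 2.04 over pairs). Over the rest of chromosome 15 the summed ratio was 1.06-fold, with overlapping libraries. DNA dosage of this stretch of the chromosome was not tested.

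**Figure D4:**
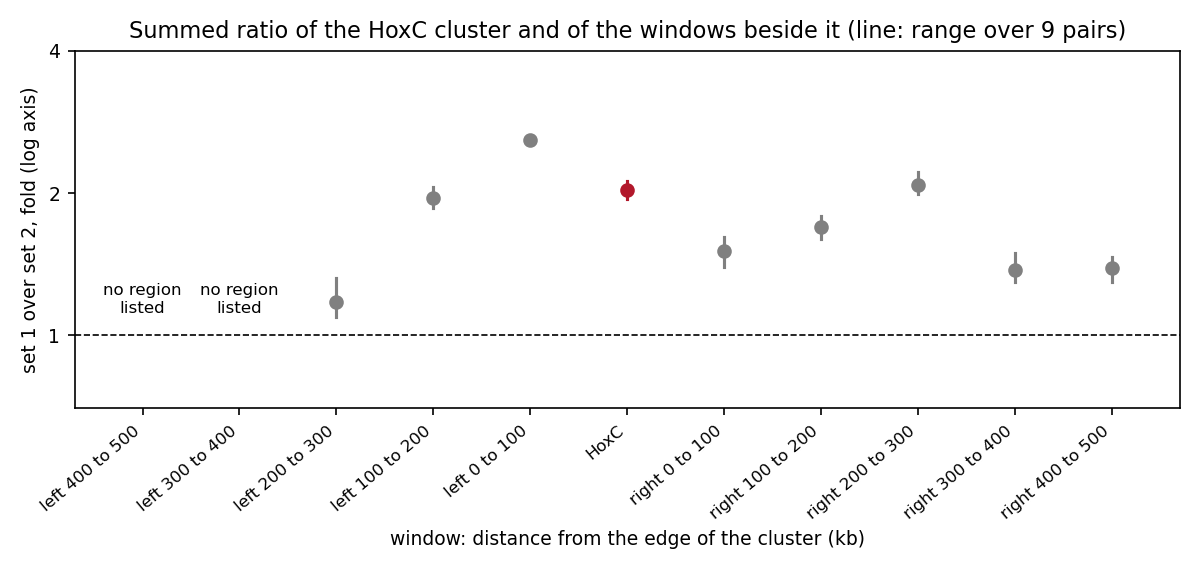
Summed set 1 over set 2 ratio (log axis) of the HoxC cluster (red) and of 100 kb windows on either side (grey), with the range over 9 library pairs as lines. The window directly to the left (2.58-fold) lies above the cluster (2.03-fold), and no region is listed 300 to 500 kb to the left.

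Genes elsewhere with nearly the same pattern over the 6 libraries were found among 2296 named genes with at least 10 kb of regions. Likeness was the Euclidean distance between log2 sums centred on their mean. A small distance requires a ratio near that of the cluster, so the ratios of these genes follow from the choice. The closest was Ctnnd2, which encodes delta-catenin of neuronal junctions, on the same chromosome far from the cluster, at a distance of 0.037. Its regions in the authors' deposited table held 7249, 7465 and 7162 in set 1 and 3656, 3664 and 3569 in set 2, a ratio of 2.01-fold. The next were Ddo, a D-aspartate oxidase, at 2.07-fold, Myo5b, an unconventional myosin, at 2.04-fold, Trim29 at 2.04-fold and Arhgap8 at 2.08-fold. Arhgap8 also lies on chromosome 15. Their distances were 0.053 to 0.066.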

How the data were processed

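H3K27me3 was measured in 3 control and 3 NNMT libraries of mouse 3T3 cells; the 2 input libraries were not analysed here. The submitters' processing notes name BWA 0.7.17, Trimmomatic 0.36 and CASAVA, with the build GRCm38. The sources used here do not state how regions were called and normalized, or whether the inputs entered. The authors deposited 1 table of 265968 regions without a header, with 3 values for each of 2 sets of libraries and a number read as −log10 p. The region values are whole numbers that may be rescaled, so no count model was fitted. Depth is unknown, because the table holds only listed regions.

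The 41 regions that overlap chromosome 15, 102921131 to 103036856, were taken whatever their p. Each was assigned to every gene whose RefSeq span (GRCm38.p6) plus 2 kb on both sides it touches. A ratio is the set 1 sum plus 1 over the set 2 sum plus 1; log2 ratios use the same pseudocount of 1. Its spread is given as the lowest and highest ratio among the 9 possible pairings of libraries from different sets. This is a range over single libraries and not an error of the summed ratio. All 10 members are described, with the microRNAs inside the interval, the nearest protein-coding gene on each side, the other Hox genes, lists of Polycomb genes and Hox cofactors, and the 5 genes most alike. Other named genes are the protein-coding and long noncoding genes with a symbol of their own, 20506 in all, of which 6610 have a region.

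The members and lists were chosen with earlier results of these data known, and the regions were listed for a difference, so no test was run. Alternatives covered the authors' p, library scaling, the pseudocount, the assignment window and leaving out each library; counting regions of a member's window outside the interval was added after seeing the data. The overlap step and the ratios were tested on simulated data and a brute-force count. Python 3.11.15, pandas 2.3.3 and matplotlib 3.10.9 were used.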

Additional observations from a re-analysis of the deposited data

How the results depend on the processing

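The summed log2 ratio of the HoxC cluster was 1.02 as deposited. It moved to 0.83 when libraries were divided by their sums, to 0.81 with size factors and to 1.11 with regions at the authors' p under 0.01, and leaving out each library gave 1.01 to 1.04. At that p the 38 regions higher in set 1 became 22, since fewer regions are listed. Separated regions numbered 20 to 27 under the other alternatives and 31 or 32 with a library left out. Members separated numbered 8 to 10. Hoxc4 turned from a log2 ratio of 0.20 to −0.017 with size factors; the remaining 9 members were higher in set 1 in each alternative that gave them a value (Hoxc11 and Hoxc10 have none where most of a region must lie inside the window). Hoxc5 moved from 0.38 to 1.29 at p under 0.01, because its regions towards Hoxc4 did not reach it. Hoxc13 moved from 0.96 to 0.79 with its region outside the interval, an alternative chosen after seeing the data. No paired analysis was possible because the values carry no replicate numbers. Depth is unknown, so no floor or interval for counting error can be given, and regions of 50 bp rest on values of 12 or less.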
